A study of Mus musculus with 3 samples.

Results

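The miRNAs described here are those commonly used as markers of vessels and of the contractile cells around them. They were taken by name from the small RNA catalogues of extracellular vesicles (EVs) of the mouse testis, as every mature or hairpin entry of miR-126a, miR-126b, miR-143, miR-145a or miR-145b. This rule gave 12 of the 1347 mature and hairpin entries counted in any library, 7 of them mature and 5 hairpin, under 7 identifiers. The leading identifiers were mmu-miR-126a-3p, mmu-miR-143-3p, mmu-miR-145a-5p and mmu-miR-126a-5p, and the others were mmu-miR-143-5p, mmu-miR-145a-3p and mmu-miR-126b-3p. miR-145b had no entry. miR-143-5p and miR-126b-3p had a mature entry but none of the hairpin type.

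The study sequenced EVs from testes of male C57/BL6 mice at postnatal day 7 (PND7), in 3 libraries of the same condition. Each EV preparation was a separate pool of 10 mice, taken from the supernatant of testes that had been freed of the tunica albuginea and digested with Accumax, then purified with the exoEasy kit and by ultracentrifugation, and treated with proteinase K, PMSF and RNase A before RNA extraction. The sample titles carry the word treated, which the labels otherwise leave unexplained, and there was no comparison group. Comparisons were therefore made between miRNAs within a library and between libraries. Clean reads numbered 25716952, 26002463 and 27939308 in replicates 1, 2 and 3, and 870967, 1005836 and 966468 of them were counted on mature miRNAs. No pair of libraries agreed within sampling noise, with a chi-square statistic of at least 96.6 per degree of freedom.

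A miRNA is cut from a hairpin precursor, and the strand that enters the silencing complex binds target mRNAs mainly through bases 2 to 8 from its 5′ end, the seed. miR-126 is made from an intron of Egfl7, a gene of endothelial cells, and is known for its role in vascular integrity and angiogenesis. miR-143 and miR-145 come from a shared cluster that is active in smooth muscle cells and pericytes, where they favour the contractile state. In the testis, cells of smooth muscle character form the walls of interstitial vessels and, as peritubular myoid cells, surround the seminiferous tubules.

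The sequences of the miR-126 locus are shown first because both of its strands are annotated as miRNA genes, and the counts fell almost wholly on the entries of 1 of them. In the table of RefSeq miRNAs used here (build GRCm38.p6), 2 of the 7 identifiers were matched to a mature sequence, miR-126a-3p and miR-126b-3p. The sequence of miR-126b-5p, which had no count, is shown with them. miR-126a-5p, miR-143-3p, miR-143-5p, miR-145a-5p and miR-145a-3p are named only. Capitals mark the seed of each mature miRNA.
mmu-miR-126a-3p: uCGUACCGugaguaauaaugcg
mmu-miR-126b-3p: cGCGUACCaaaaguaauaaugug
mmu-miR-126b-5p: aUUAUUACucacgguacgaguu
In the precursors, capitals mark the mature arms listed above.
Mir126a: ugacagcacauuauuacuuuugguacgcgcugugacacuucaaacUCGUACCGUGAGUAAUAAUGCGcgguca
Mir126b: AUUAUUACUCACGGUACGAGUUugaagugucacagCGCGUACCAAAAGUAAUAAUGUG
miR-126a-3p covers bases 46 to 67 of its precursor of 73 bases. Its seed, CGUACCG, was found in no other of the 1738 mature mouse miRNAs of that table, and the same held for the seeds of miR-126b-3p and miR-126b-5p. The reverse complement of the Mir126b precursor lies within the Mir126a precursor. miR-126a-3p and miR-126b-3p nevertheless read alike, and in their best ungapped alignment they differed at 5 of 22 positions.

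On GRCm38, Mir126a occupies chromosome 2, positions 26591357 to 26591429 (plus strand). It lies in an intron of 8 of the 9 annotated Egfl7 transcripts that span it, and overlaps 1 exon of the ninth. It also lies in an intron of Gm20532. Mir126b lies opposite, from 26591363 to 26591420 on the minus strand, and miR-126b-5p shares 19 positions with miR-126a-3p.

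**Figure D1:**
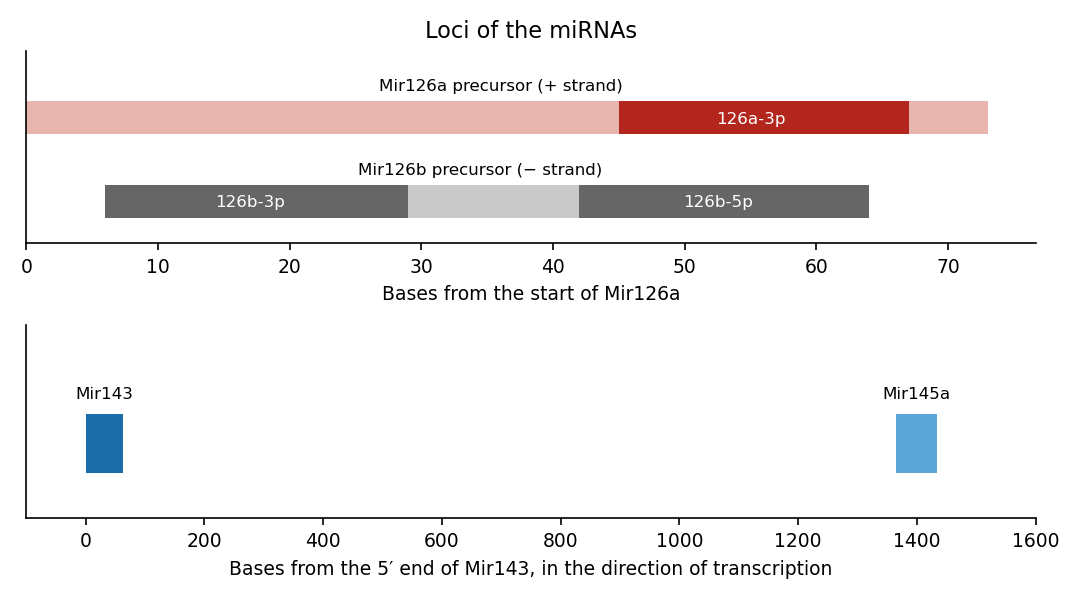
Positions of the precursor genes and mature arms, in bases along the genome from the start of Mir126a (upper panel) and in bases from the 5′ end of Mir143 in the direction of transcription (lower panel). Mir126b lies inside Mir126a on the opposite strand, and 1301 bases separate Mir143 from Mir145a; miR-126a-5p is not drawn.

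Mir143 lies on chromosome 18 from 61649196 to 61649258 and Mir145a from 61647825 to 61647894, both on the minus strand and 1301 bases apart. The annotated end of the non-coding gene Carmn lies 366 bases upstream of Mir143 on the same strand, so neither miRNA gene overlaps it in this annotation.

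Together the 7 mature entries held 2.14%, 2.54% and 2.93% of the mature miRNA counts in replicates 1, 2 and 3, with a mean of 2.54% ± 0.392 (SD, n = 3). The 4 leading identifiers made up 99.8% of these counts. The 5 hairpin entries held 1.79% ± 0.104 (SD, n = 3) of the hairpin counts. EVs were prepared from the whole decapsulated testis, and the paper describes them as a mixture from several cell types. It also states that no report so far had shown testis EVs from endothelial or peritubular myoid cells. More EVs from a cell type and more miRNA per EV cannot be told apart here.

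The endothelial miR-126a-3p had the highest mean level of these miRNAs as mature entries, although miR-143-3p was higher in replicate 1. Its level, in counts per 1000000 mature miRNA counts (CPM), was 8693, 11484 and 16983 in replicates 1, 2 and 3. Replicate 3 had the highest level and replicate 1 the lowest, and the exact (Clopper-Pearson) 95% intervals of the libraries, from 8499 to 8890, from 11277 to 11694 and from 16727 to 17243 CPM, did not overlap. These intervals cover counting error only, since copies made by PCR were not told apart. The mean was 12387 ± 4219 CPM (SD, n = 3), rank 18 among 604 mature miRNAs with a count. With hairpin entries added to both the counts and the total, miR-143-3p had the higher mean, with 10129 CPM against 9211 for miR-126a-3p. Scaled to clean reads, the level of mature miR-126a-3p was still highest in replicate 3, at 2.00 times that of replicate 1, which was again the lowest.

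The other arm of the same precursor, miR-126a-5p, was far less abundant but was ordered alike over the libraries. It had 97.6, 117 and 159 CPM in replicates 1, 2 and 3, from 85, 118 and 154 counts. Replicate 3 was again the highest and replicate 1 the lowest, although its interval in replicate 2 overlapped those of both other libraries. Its mean was 125 ± 31.5 CPM (SD, n = 3) and its rank 162.

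As CPM, miR-143-3p, the leading miRNA of the smooth muscle cluster, had nearly the same level in each library. It had 9038, 10217 and 9175 CPM in replicates 1, 2 and 3. Its mean was 9477 ± 645 CPM (SD, n = 3), rank 20. The intervals of replicates 1 and 3 overlapped, from 8841 to 9239 and from 8986 to 9367 CPM, and replicate 2 lay above both. Scaled to clean reads, the levels of miR-143-3p lay further apart. Replicate 2 was again the highest, at 1.29 times replicate 1, the lowest.

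miR-145a-5p, its cluster partner, was lower in each library. Its level was 3554, 3539 and 2918 CPM in replicates 1, 2 and 3, and the mean was 3337 ± 363 CPM (SD, n = 3), rank 32. Replicate 3, the library richest in miR-126a-3p, was the lowest for miR-145a-5p. Scaled to clean reads, replicate 3 was still the lowest for miR-145a-5p. The highest was then replicate 2, at 1.36 times replicate 3.

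The remaining arms had at most 39 counts in a library. miR-145a-3p had 21, 39 and 22 counts, or 28.5 ± 8.88 CPM (SD, n = 3). miR-143-5p had 24 counts in replicate 1, 23 in replicate 3 and 0 in replicate 2, where 0 counts allow up to 2.98 CPM. miR-126b-3p had 1 and 18 counts in replicates 1 and 2 and 0 in replicate 3, where 0 counts allow up to 3.10 CPM. The entry of miR-126b-3p thus rested almost wholly on replicate 2.

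**Figure D2:**
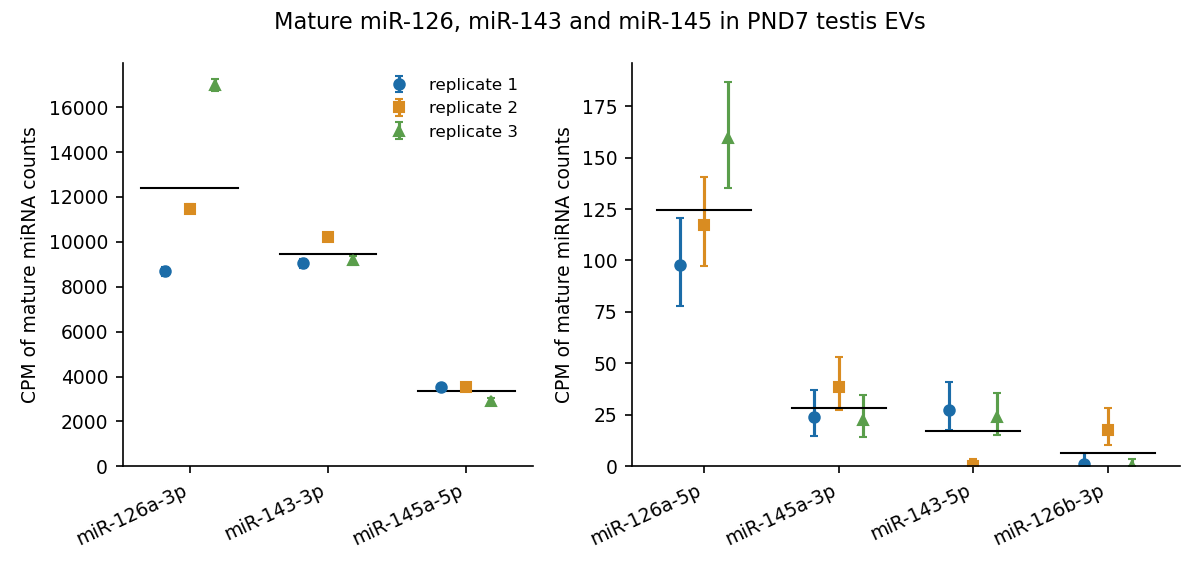
Level of each mature miRNA in CPM of mature miRNA counts (linear axes, 1 point per library, error bars for exact 95% binomial intervals, black lines for the mean of 3 libraries), with the abundant miRNAs on the left and the scarce ones on the right. miR-126a-3p ran from 8693 to 16983 CPM, whereas miR-143-3p stayed between 9038 and 10217.

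The levels of neighbours in the order of all mature miRNAs did not differ beyond the spread of their differences within libraries. Neighbours were chosen as the nearest in mean level, so a small difference was largely fixed by that choice. miR-22-3p stood directly above miR-126a-3p with 12533 ± 1929 CPM, and miR-470-5p directly below with 10609 ± 1382 (SD, n = 3 each). miR-470-5p was also the neighbour above miR-143-3p, and it exceeded miR-143-3p in 3 of 3 libraries, but by 1132 ± 1418 CPM (SD, n = 3). miR-196a-5p, below miR-143-3p, had 9463 ± 2066 CPM. miR-145a-5p stood between miR-322-5p, with 3392 ± 282 CPM, and miR-100-5p, with 3194 ± 527 (SD, n = 3 each). miR-126a-5p stood between miR-615-3p, with 127 ± 60.0, and miR-221-3p, with 122 ± 59.4 CPM.

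The spread between libraries was wider for miR-126a-3p than for miR-143-3p and miR-145a-5p. The highest CPM exceeded the lowest by a factor of 1.95 for miR-126a-3p and 1.63 for miR-126a-5p, against 1.13 for miR-143-3p and 1.22 for miR-145a-5p. The minor arms of the cluster varied more, with a factor of 1.70 for miR-145a-3p and a range from 0 to 27.6 CPM for miR-143-5p. The median factor was 1.73 over the 272 mature miRNAs that reached 10 counts in each library. Of these miRNAs, 6 had a smaller factor than miR-143-3p and 26 a smaller one than miR-145a-5p, whereas 157 had a smaller one than miR-126a-3p. Abundant miRNAs vary less by counting error, and the median was 1.51 over the 148 that reached 100 counts in each library. The upper quartile of these 148 was 1.78, and miR-126a-3p lay above it. Of the 4 leading miRNAs, 1 had a factor above the median of the 272, none without replicate 3 (0 of 4) and 2 without replicate 2. Scaled to clean reads, the factors were 2.00 for miR-126a-3p, 1.67 for miR-126a-5p, 1.29 for miR-143-3p and 1.36 for miR-145a-5p. The places among the 272 miRNAs were not taken on that scale. The difference in spread between the miRNAs was not tested.

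**Figure D3:**
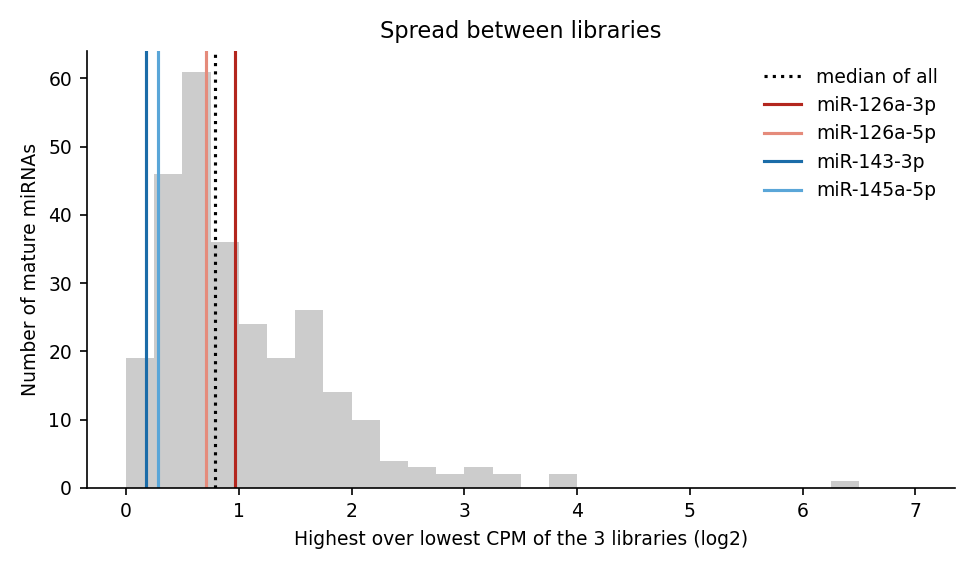
Histogram of the highest over the lowest CPM of the 3 libraries (log2 axis) for the 272 mature miRNAs that reached 10 counts in each library, with the 4 leading identifiers as coloured lines and the median of all as a dotted line. miR-143-3p and miR-145a-5p lie at the narrow end, with factors of 1.13 and 1.22, and miR-126a-3p lies to the right of the median.

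The library profiles most like each miRNA were sought among the same 272 miRNAs, as the smallest value of the largest difference in centred log2 CPM over 3 libraries. For miR-126a-3p these were miR-465c-5p, let-7f-5p and an entry without a miRBase name, with differences of 0.10, 0.11 and 0.11. Its own 5p arm was the 6th nearest of 271, with 0.13. For miR-126a-5p the nearest were let-7a-5p, miR-3470a and miR-1a-3p, with 0.02, 0.04 and 0.06. miR-143-3p was nearest to miR-26b-5p, miR-322-5p and miR-410-3p, with 0.01, 0.02 and 0.03, and its cluster partner miR-145a-5p was the 27th nearest, with 0.16. miR-145a-5p was nearest to miR-299a-5p, miR-294-3p and miR-22-3p, with 0.03, 0.05 and 0.08. With 3 points in a profile, this is a description of these libraries.

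Next, the arms of each precursor were compared within libraries. In all, 9 log2 ratios were tested with a two-sided exact sign-flip test paired within libraries, which cannot give a p under 0.25 from 3 libraries, so none could pass 0.05. After Benjamini-Hochberg adjustment the lowest p was 0.321. miR-126a-3p exceeded miR-126a-5p by 89.1-fold, 97.9-fold and 107-fold in replicates 1, 2 and 3. The log2 ratio was 6.61 ± 0.13 (SD, n = 3; exact p = 0.25) and above 0 in 3 of 3 libraries. The ratio of the mature arms thus varied little while the level of both arms differed between libraries.

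For the cluster, the arm opposite to that of miR-126a led in miR-145a. miR-145a-5p exceeded miR-145a-3p by 147-fold, 91.3-fold and 128-fold. miR-143-3p exceeded miR-143-5p by 328-fold in replicate 1 and 386-fold in replicate 3, and by at least 3426-fold in replicate 2, against a floor of 3 counts for the arm with none. In all 3 precursors 1 arm was at least 2-fold above the other in every library, which held for 56.9% of the 137 miRNAs with both arms counted as mature. Among the 112 of these that reached 10 counts over both arms in each library, it held for 67.0%. The median ratio of the arms was 41.6 over these 112.

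Against miR-126b-3p, whose hairpin shares the locus with Mir126a, miR-126a-3p had 7571 counts where the former had 1 in replicate 1. It was 642-fold above miR-126b-3p in replicate 2, and at least 5471-fold in replicate 3 against a floor of 3 counts. The entries of Mir126a therefore held nearly all counts at the locus. The sources used here do not say whether counting used the strand, and without it reads where both genes overlap cannot be told apart.

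Within the cluster, miR-143-3p exceeded miR-145a-5p by 2.54-fold, 2.89-fold and 3.14-fold in replicates 1, 2 and 3. The log2 ratio was 1.51 ± 0.15 (SD, n = 3; exact p = 0.25), above 0 in 3 of 3 libraries. The order of both miRNAs was thus the same in each library.

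The balance of endothelial and mural miRNAs was not. Summed over the arms, mature miR-126a had 0.695 of the counts of miR-143 and miR-145a in replicate 1, 0.841 in replicate 2 and 1.41 in replicate 3. miR-126a was the lower in replicates 1 and 2 and the higher in replicate 3, and the mean log2 ratio was -0.09 ± 0.53 (SD, n = 3; exact p = 0.75), smaller than its spread. The mean was 0.12 without replicate 1 and -0.39 without replicate 3. With hairpin entries added, miR-126a was the lower in each library, by a log2 ratio of -0.95, -0.68 and -0.02. miR-126a-3p alone stood at 0.962, 1.12 and 1.85 times miR-143-3p, so that these miRNAs changed places between replicate 1 and the others.

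The type of entry divided the miRNAs as well. The authors counted reads of the same identifier as mature or as hairpin, and the sources used here do not define the hairpin type. Of the 5 identifiers with both types, 4 had more mature than hairpin counts in every library. This held for 26.2% of all 542 such identifiers. Among the 364 that reached 10 counts of both types together in each library, it held for 37.9%. The exception among the 5 was miR-145a-3p, with 23, 19 and 32 hairpin counts against 21, 39 and 22 mature counts.

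miR-126a-3p was counted mainly as mature, with 1565, 2084 and 2898 hairpin counts against 7571, 11551 and 16414 mature counts. Hairpin counts made up 15.8% ± 1.15 (SD, n = 3) of its sum, and the log2 ratio of mature to hairpin was 2.42 ± 0.12 (SD, n = 3; exact p = 0.25). For miR-143-3p the types were closer, with 5705, 6589 and 6590 hairpin counts against 7872, 10277 and 8867 mature counts. Its hairpin share was 41.2% ± 1.91 and its log2 ratio 0.51 ± 0.11 (SD, n = 3; exact p = 0.25). miR-145a-5p lay between them, with 1279, 1690 and 1405 hairpin counts, a share of 31.6% ± 2.08 and a log2 ratio of 1.12 ± 0.14 (SD, n = 3; exact p = 0.25). The shares of these 3 miRNAs did not overlap between miRNAs in any library, and the differences between them were not tested.

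The minor arm miR-126a-5p was less sharply divided than miR-126a-3p. It had 80, 62 and 82 hairpin counts against 85, 118 and 154 mature counts, a hairpin share of 39.2% ± 8.02 and a log2 ratio of 0.64 ± 0.48 (SD, n = 3; exact p = 0.25). In replicate 1 its types were nearly equal. The median ratio of mature to hairpin was 0.995 over the 364 identifiers that reached 10 counts of both types together in each library.

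**Figure D4:**
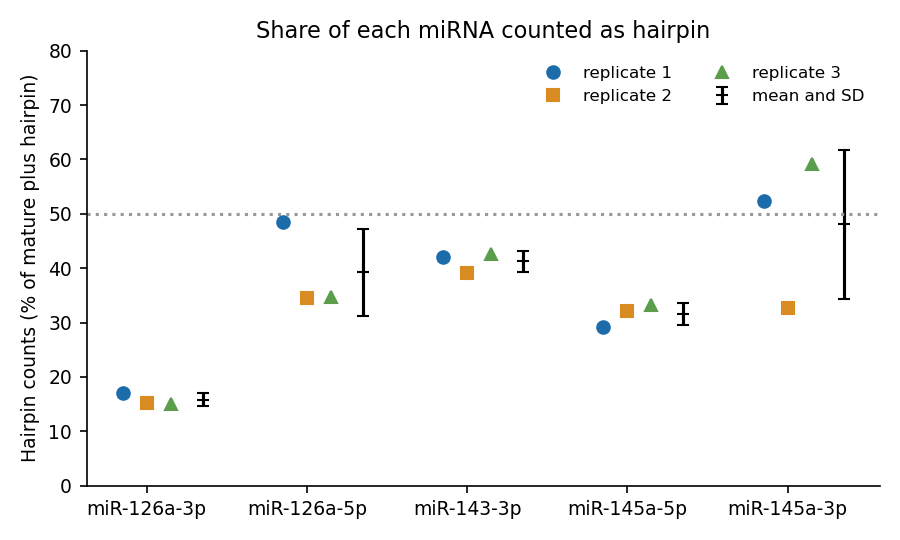
Percentage of the counts of each identifier that fell on its hairpin entry (coloured points for libraries, black bars for mean and SD of 3 libraries, dotted line at equal counts). miR-126a-3p lies lowest, at 15.8%, and miR-145a-3p lies on both sides of the dotted line.

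As CPM of hairpin counts, the hairpin entries repeated the order of the libraries only in part. The hairpin entry of miR-126a-3p had 3172, 3405 and 5018 CPM in replicates 1, 2 and 3, again highest in replicate 3. That of miR-143-3p had 11564, 10764 and 11411 CPM, with replicate 2 the lowest rather than the highest. That of miR-145a-5p had 2593, 2761 and 2433 CPM, and replicate 3 was the lowest as for its mature entry. That of miR-126a-5p had 162, 101 and 142 CPM. Its highest value was in replicate 1, where its mature entry was lowest.

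Other cells of the interstitium and of the testis were then set beside these miRNAs by lists of marker miRNAs. Of 18 other miRNAs known from angiogenesis or the vessel wall, all were counted in at least 1 library and 9 were among the 50 most abundant mature miRNAs. Their median level was 1478 CPM, against 29.1 over all 604 mature miRNAs. The list was chosen with earlier results of these data known, and the 604 include miRNAs with few counts. The difference therefore only describes the chosen list and was not tested. miR-218-5p, encoded in introns of Slit genes, was the most abundant, with 7900 ± 790 CPM, followed by miR-24-3p with 6365 ± 2595 and miR-27b-3p with 5389 ± 1106 (SD, n = 3 each). The list was uneven, and 15 of the 18 reached 10 counts in each library. At its low end, miR-132-3p had 1, 0 and 0 counts in replicates 1, 2 and 3, miR-210-3p had 3, 23 and 0, and miR-503-5p had 1, 33 and 62. All 18 had a lower mean than miR-126a-3p, and 14 had a lower mean than miR-145a-5p. These ranked 18 (miR-126a-3p) and 32 (miR-145a-5p) among all 604 mature miRNAs, so most miRNAs of any kind lay below both. Of the 18 listed, 5 were highest in replicate 3, as miR-126a-3p was, 9 in replicate 2 and 4 in replicate 1. The same split over all mature miRNAs was not taken, so these counts describe the list alone.

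The blood cell lists summed to far less than the vessel and mural miRNAs together. Their leading members still ranked 104 (miR-150-5p) and 108 (miR-451a) among 604 mature miRNAs. Of the 5 erythroid miRNAs, all but miR-144-5p were counted, and they summed to between 361 and 599 CPM, mostly miR-451a with 411 ± 102 (SD, n = 3). The 5 leukocyte miRNAs summed to between 350 and 630 CPM, mostly miR-150-5p with 442 ± 142. miR-142a-3p, shared by most leukocytes, had 10, 2 and 1 counts, and miR-223-3p, of the myeloid cells, had 33, 1 and 21 counts. miR-126, miR-143 and miR-145 together exceeded both lists together by 20.2-fold, 35.8-fold and 27.3-fold, a log2 ratio of 4.76 ± 0.41 (SD, n = 3; exact p = 0.25). With hairpin entries added to both sides the log2 ratio was lower, at 3.82. The erythroid sum was highest in replicate 1, where miR-126a-3p was lowest, and the leukocyte sum in replicate 3, where it was highest. The leukocyte sum followed miR-150-5p, with 392, 331 and 602 CPM in replicates 1, 2 and 3. miR-142a-5p, with at most 3 counts in a library, was also highest in replicate 3. In contrast, miR-142a-3p, miR-223-3p and miR-155-5p were highest in replicate 1. The part of blood cells in the level of miR-126a-3p was not tested.

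Against miR-202, listed here as a marker of the somatic cells of the gonad, the vessel and mural miRNAs were at a similar level. Which cells supplied miR-202 to these EVs, germ cells included, was not tested. They stood at 1.01, 0.853 and 1.11 times the counts of both arms of miR-202 in replicates 1, 2 and 3. The log2 ratio was -0.02 ± 0.19 (SD, n = 3; exact p = 1), smaller than its spread, and it was 0.08 without replicate 2. miR-202-5p alone had 23963 ± 4952 CPM (SD, n = 3) and was highest in replicate 2.

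The mesenchymal list of miR-199 and miR-214 summed to between 6384 and 9505 CPM and was lowest in replicate 3. Within it miR-199a-3p had 2722, 135 and 35 counts where miR-199b-3p had 205, 3529 and 2766. These miRNAs have the same mature sequence, so the division of counts between them is uncertain and their sum is the safer value. Striated muscle miRNAs summed to between 579 and 1050 CPM and epithelial ones to between 382 and 550 CPM, both highest in replicate 3. In the epithelial list miR-429-3p supplied most counts, with 422 ± 74.5 CPM (SD, n = 3), while miR-141-3p had 1 count in all and miR-200c-3p was counted in replicate 3 alone, with 60 counts, and miR-200b-3p had none. The part of these tissues in the level of miR-126a-3p was not tested.

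**Figure D5:**
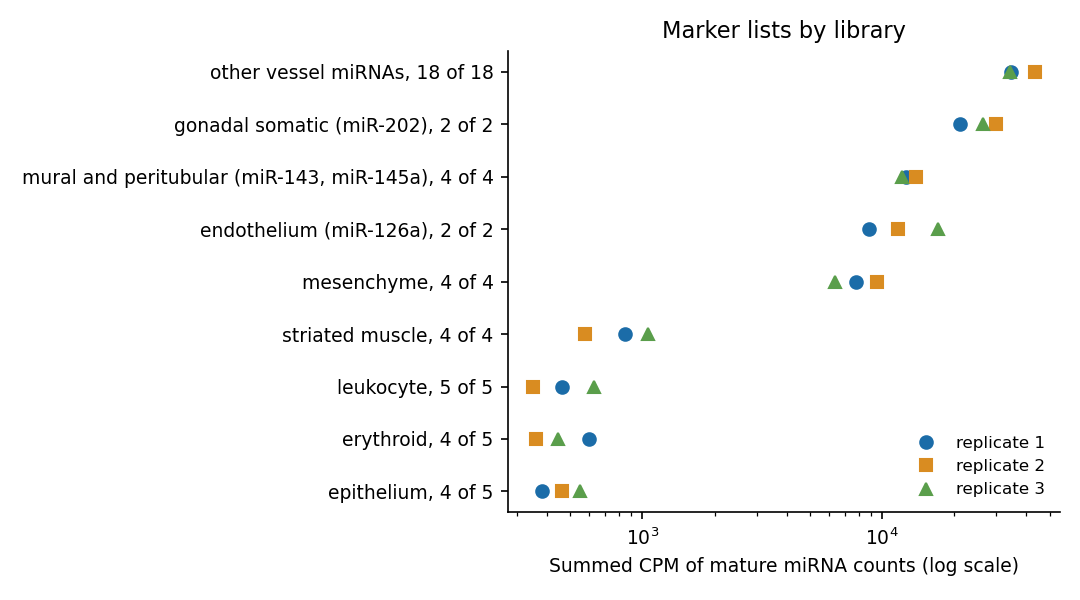
Summed CPM of mature miRNA counts for each marker list (log axis, 1 point per library), with the number of listed miRNAs counted in any library. The mural list lies between 12139 and 13795 CPM and the endothelial list between 8790 and 17143, whereas the blood cell lists lie between 350 and 630.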

How the data were processed

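Small RNA of PND7 testis EVs was measured in 3 libraries, each from pooled mice. Nothing says that the preparations shared a day or batch. The authors sequenced on the BGISEQ-500, removed low-quality reads, mapped clean reads with Bowtie2 and cmsearch, and gave each read to a single database class in a fixed order. The submitters' processing notes name mm10, and tool versions and the handling of reads that map to several loci or to either strand are not given in the sources used here. The authors deposited raw counts of reads per entry and per class. A deposited column whose header reads umi was left aside: for small RNA entries it held the count divided by clean reads, not molecules.

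Counts were divided by the mature (or hairpin) total of each library to give CPM. Members and marker lists were chosen with earlier results of these data known. Named were all matched entries, the marker lists, neighbours in rank and the 3 nearest profiles of each leading miRNA. Ratios were taken within libraries and tested with an exact sign-flip permutation test. Intervals are Clopper-Pearson at 95%, and the floor is 3 counts. Alternatives changed the scaling, the entry types, a count minimum of 10 or 100, pooling, and each replicate left out. Scripts were tested on simulated data. Mature sequences came from RefSeq (GRCm38.p6) and gene positions from GENCODE vM21. Analyses ran in Python 3.11.15 with SciPy 1.17.1, numpy 2.4.6 and pandas 2.3.3, and plots in matplotlib 3.10.9.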

Additional observations from a re-analysis of the deposited data

Results flagged for a closer look

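Reads were also counted on Rfam precursor families of these miRNAs, a type of entry that no comparison above used. They were singled out because their counts lay above the floor of 3 counts set for an empty entry. The mean count was 1165 for the mir-143 family, 880 for the mir-126 family and 829 for the mir-145 family. The total of such entries differed between libraries, so levels were taken as CPM of precursor counts. The mir-143 family had 8402, 7109 and 9345 CPM in replicates 1, 2 and 3, lowest in replicate 2. The mir-126 family had 7244, 5209 and 6526 CPM, highest in replicate 1, where mature miR-126a-3p was lowest. The mir-145 family had 8138, 5451 and 4521 CPM, lowest in replicate 3, as mature miR-145a-5p was. There was no control library, and groups of 3 libraries were not tested for outlying values.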

How the results depend on the processing

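Of 53 alternatives to 13 main results, 5 turned the direction of a ratio or changed the count of widely spread miRNAs. A further 3, all from summing mature and hairpin entries, kept the direction but moved the log2 ratio by more than its SD: miR-126a-3p to miR-126a-5p from 6.61 to 6.13, miR-143-3p to miR-145a-5p from 1.51 to 1.73, and the matched miRNAs to the blood cell lists from 4.76 to 3.82. The mean log2 ratio of miR-126a to miR-143 and miR-145a was -0.09, and between -0.39 and 0.12 with each replicate left out in turn, positive without replicate 1. That of the matched miRNAs to miR-202 was -0.02, and between -0.11 and 0.084, positive without replicate 2. The number of the 4 leading miRNAs with a wider spread between libraries than the median was 1, and 2 against miRNAs that reached 100 counts in each library, whose median is lower, so that miR-126a-5p also exceeded it. With each replicate left out in turn it ran from 0 without replicate 3 to 2 without replicate 2. Of 49 alternatives to the 7 single levels, 12 moved a level by more than its SD: 5 when scaled to all miRNA entries and 6 when scaled to clean reads, each a change of unit, and 1, miR-143-3p, when summing mature and hairpin entries, which gave 10129 CPM. Leaving out 1 of 3 libraries cannot move a mean by more than its SD, so that check could not fail. Without replicate 2 the mean of miR-126b-3p fell from 6.35 to 0.574 CPM. That of miR-126a-3p ran from 10088 CPM without replicate 3 to 14234 CPM without replicate 1. With 3 libraries no test could pass 0.05, and depth limits miR-145a-3p, miR-143-5p and miR-126b-3p, with at most 39 counts in a library.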
